A study of Mus musculus with 31 samples.

Results

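The genes that encode the proteins of the cytosolic ribosome were followed in RNA-seq libraries of sorted mouse astrocytes. Members were chosen by symbol: names that begin with Rpl or Rps and a digit, with Rplp0, Rplp1, Rplp2 and Rpsa, that have a protein-coding transcript. Pseudogene symbols with "-ps", the Rps6k kinases and Rpl39l, Rpl22l1, Rps19bp1 and Rps27l were left out. This gave 83 of the 55401 genes listed, 50 with large-subunit and 33 with small-subunit symbols. The family was proposed with its share of the counts and its levels in the 4 groups in view, so those values are descriptions. Counts of members called by a test are mostly given beside the share or number of all genes called, and nothing is read from them.

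A cytosolic ribosome is built from a large and a small subunit, each made of ribosomal RNA and many proteins that are needed in equal numbers. The messenger RNAs of these proteins usually begin with a cytosine and a run of pyrimidines, called the TOP motif, through which their translation is controlled by the mTORC1 kinase pathway. In astrocytes, glia that sustain neurons and react to inflammation, they are among the abundant transcripts.

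The 12 libraries carry 4 labels with 3 replicates each. Per the labels, all mice were female, C57Bl/6, 10 weeks old and free of specific pathogens. The 1X PBS and 2X PBS mice had PBS alone, and the 1X cytokine and 2X cytokine mice had IL-1β at 100 ng/mL with TNF-α at 50 ng/mL, through injections that targeted the lateral ventricles on both sides. A mouse labelled 2X was injected and then injected again on day 7, and one labelled 1X was injected on day 7 only. Cells were sorted 18 to 24 hours after the injection on day 7. The short description names TNF-α stimulation only, and neither the sorting markers nor whether the 1X and 2X mice were handled together were stated, so the number of injections and the handling cannot be told apart. Nor do the labels say whether a library is 1 animal, and p-values then measure only how far these libraries spread, possibly for technical reasons. 19 ATAC-seq samples were not analysed here.

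All 15 astrocyte markers listed for the check, among them Aldh1l1, Slc1a3 and Aqp4, had counts in every group, with summed levels from 13963 to 44670 CPM per library. CPM here is estimated counts scaled to a common library size by edgeR. In 1X PBS replicate 3, erythrocyte markers summed to 64887 CPM and choroid plexus markers to 27131, against 13963 for astrocyte markers. In 1X PBS replicate 2 choroid plexus markers had 26647 CPM against 14123 for astrocyte markers. In 1X cytokine replicate 1 they had 28808 CPM against 19138. In the other libraries the astrocyte sum was the highest of the marker sums. Library totals ran from 1878418 to 5521679 estimated counts. 2 libraries stood apart from their labels. The library labelled 1X PBS replicate 1 had 32.1 CPM of 10 monocyte and macrophage markers, while replicates 2 and 3 had 1519.5 and 1371.0 CPM. The library labelled 1X cytokine replicate 1 had 344 CPM, while replicates 2 and 3 had 31 and 32.4 CPM. Whether the labels of these 2 libraries were exchanged cannot be told from the files. Apart from them, these markers were higher under the PBS label, with 373 to 395 CPM in 2X PBS and 11.1 to 81.7 CPM in 2X cytokine. The 2X labels were not tested either, and the sign of each 2X difference rests on them. All labels were kept as given, and an exchange of the 2 libraries that stood apart would alter each 1X mean, fold change and difference between responses printed here. Results that involve the 1X groups are therefore given with and without these libraries. They also differ from their groups in ribosomal protein levels, so values without them are a description.

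63 of the 83 members have an entry in a RefSeq promoter table for GRCm38.p6. The windows below hold 15 bases before and 15 bases from the annotated start, 5′ to 3′, and show which of these members carry a pyrimidine run near it. A TOP motif begins at the start itself, so a run elsewhere in the window need not be one. Capitals mark a C followed directly by 6 or more bases that are each C or T, and a window with no capitals has no such run. The windows lie at chr3:90213634-90213663 for Rps27, chr7:141447636-141447665 for Rplp2, chr4:86857353-86857382 for Rps6, chr7:45128731-45128760 for Rpl13a, chr11:114668565-114668594 for Rpl38, chrX:37085208-37085237 for Rpl39, chr13:90923107-90923136 for Rps23, chr1:72711245-72711274 for Rpl37a, chr4:152325711-152325740 for the second listed start of Rpl22, chr17:46782642-46782671 for Rpl7l1 and chr9:114982725-114982754 for Rps27rt. Rplp2, Rpl38, Rps23, Rpl37a and Rpl22 lie on the plus strand and the others on the minus strand.
Rps27: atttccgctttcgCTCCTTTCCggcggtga
Rplp2: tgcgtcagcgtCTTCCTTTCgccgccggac
Rps6: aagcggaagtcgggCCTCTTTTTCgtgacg
Rpl13a: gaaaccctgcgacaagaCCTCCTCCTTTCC
Rpl38: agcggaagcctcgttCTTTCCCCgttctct
Rpl39: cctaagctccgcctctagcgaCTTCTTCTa
Rps23: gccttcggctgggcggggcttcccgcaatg
Rpl37a: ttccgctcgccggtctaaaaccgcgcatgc
Rpl22: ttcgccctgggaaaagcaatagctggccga
Rpl7l1: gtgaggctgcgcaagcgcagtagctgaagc
Rps27rt: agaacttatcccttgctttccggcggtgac

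A run was found in 30 of 63 members (47.6%), against 16.4% of all 27025 RefSeq genes with an entry and 15.9% of 69 mitochondrial ribosomal protein genes. Annotated starts can lie some bases away from the true start, so a match is a description, and a missing match says only that these letters are not in this window. In the 300 bases around the start, searched on both strands, the ETS factor letters CCGGAAG were in 38.1% of the members, 37.7% of the mitochondrial ribosomal protein genes, 12.9% of protein-coding genes and 9.93% of all genes. In the same order, the GC box letters GGGCGG were in 60.3, 49.3, 49.2 and 38.2%, the YY1 letters AAGATGGC in 9.52, 17.4, 3.57 and 3.19%, and the letters TATAAA in 9.52, 7.25, 14.8 and 15.7%. A CCGGAAG and an AAGATGGC can overlap in the letters AAG. The 83 genes lie on 19 chromosomes of GRCm38 (GENCODE M21), with 14 on chromosome 7 and 4 on the X chromosome.

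Levels between members were compared per length, in TPM (kallisto's abundance corrected for transcript length). Rpl41, which encodes the shortest ribosomal peptide, was among the most abundant, with a mean over the 12 libraries of 1528 TPM, with libraries from 1070 to 2072. Rplp1, an acidic protein of the stalk that recruits elongation factors, had a mean of 1280 TPM, and Rps27, Rps29 and Rps14, which all encode small-subunit proteins, had 1171, 938 and 873 TPM. Among these 5 genes the ranges of neighbours in order of level overlapped. The median member had 438 TPM, 35 members were above 500 and 74 above 100, and the middle of the tested members lay between 260 and 619 TPM. The order hardly moved between libraries: Spearman's rho of member TPM over the 66 pairs of libraries, which share gene models, ran from 0.949 to 0.989.

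**Figure D1:**
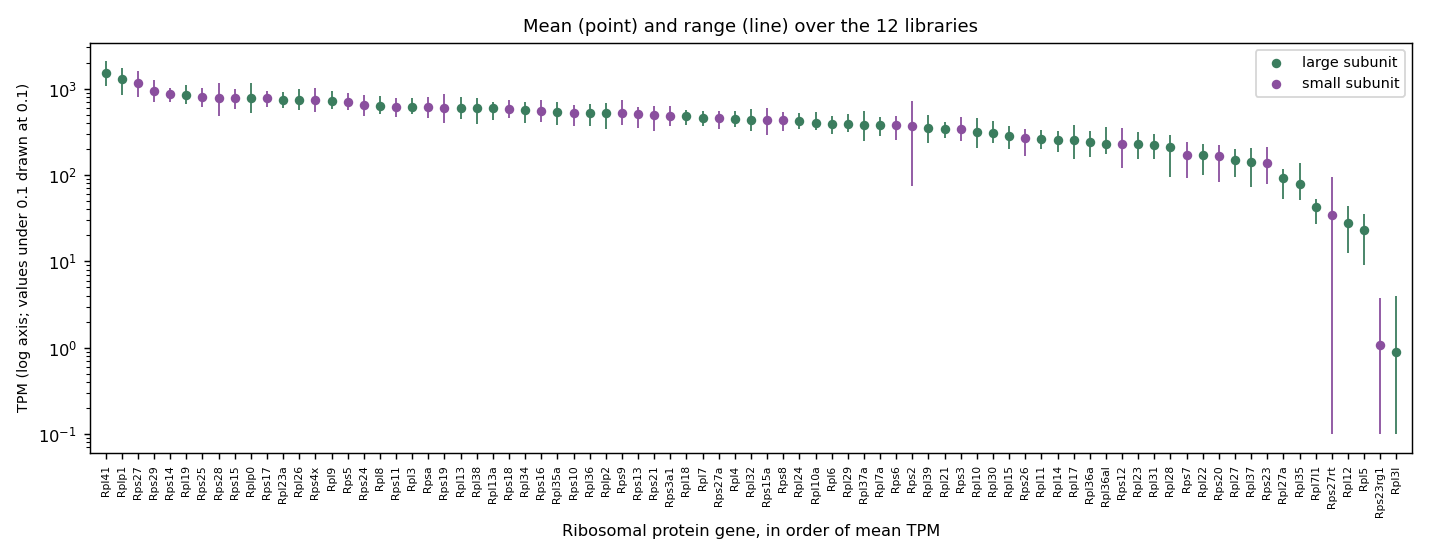
Mean TPM (points) and range over the 12 libraries (lines) of the members with any counts that are reported here, on a log axis, in order of the mean and coloured by subunit. Rpl41 stands at 1528 TPM, 74 of all members are above 100, and Rps2 and Rps27rt have the widest ranges among the tested members.

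At the low end, Rpl5, which with Rpl11 binds the p53 regulator Mdm2, had 22.8 TPM, Rpl12 28.0, Rps27rt, a retrotransposed copy of Rps27, 34.7, and Rpl7l1, an Rpl7-like protein of the assembling large subunit, 43.1. Some of these low values depend on how reads were divided among look-alike genes. For Rpl5 (chromosome 5, 107900502 to 107909005) a mean of 66.5 estimated counts was listed, and for Gm15500, a processed pseudogene that holds only stretches found in Rpl5 transcripts, 1238. Rpl12 (chromosome 2, 32961559 to 32965345) had 63.6 counts and its copy Gm10275 405, and Rpl10 (chromosome X, 74270812 to 74273135) had 449 and its copy Rpl10-ps3 817. Outside the family, 322 genes share at least 50% of their stretches of 31 bases with a member, and they hold 15.1% of the counts of family and copies together. 9 members had more counts in copies than in the gene, so their separate levels are uncertain.

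3 members were nearly silent and did not pass the filter on low counts. Rpl10l, the testis paralog of Rpl10, had 0 counts in every library, against a limit of 3 counts that corresponds to 0.543 to 1.6 CPM. Rpl3l, the muscle paralog of Rpl3, had a mean of 0.887 TPM, and Rps23rg1, a retrotransposed Rps23 gene, 1.06 TPM. Rpl3 itself, whose protein sits near the peptidyl transferase centre, had 619 TPM. The 80 other members were tested.

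Within the family the kinds of transcript had narrow ranges. Transcripts of the protein-coding class held 87.0 to 87.9% of the family's counts in every library, those marked for nonsense-mediated decay 6.60 to 7.78%, and retained introns 3.73 to 4.85%. Retained introns had a mean of 4.44% in the 2X cytokine group and 4.28% in the 2X PBS group, with all groups between 3.96 and 4.44%.

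The share of all estimated counts that fell on the family was lower with cytokine than with PBS in the 2X mice. The 2X PBS libraries had 1.40, 1.52 and 1.48% in replicates 1, 2 and 3, and the 2X cytokine libraries 1.02, 1.05 and 1.06%. Every 2X cytokine library was below every 2X PBS library, and the means were 1.04% ± 0.0235 and 1.47% ± 0.0625 (SD, n = 3), a ratio of 0.709. The Wilson interval at 95% of a single library's share reached at most 0.0151 percentage points to each side, and it covers counting error only.

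In the 1X mice the shares did not divide by label. The 1X PBS libraries had 1.04, 1.79 and 1.76%, and the 1X cytokine libraries 1.6, 1.13 and 1.03%, so the groups overlapped through replicate 1 of each. The means were 1.53% ± 0.425 in 1X PBS and 1.25% ± 0.304 in 1X cytokine (SD, n = 3), a difference of -0.28 percentage points. Without both replicates 1 it was -0.70 points.

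The mitochondrial ribosome offered a measure that the choice of members did not use. Its 78 protein genes, which are encoded in the nucleus and serve translation inside mitochondria, took a mean share of 0.306% ± 0.0188 in 2X cytokine against 0.302% ± 0.0108 in 2X PBS, a ratio of 1.01. In the 1X groups the means were 0.298% ± 0.0139 for cytokine and 0.291% ± 0.0165 for PBS (SD, n = 3). Over all 12 libraries the mitochondrial share stayed between 0.273 and 0.327%. Replicate 1 had 0.305% in 1X PBS and 0.309% in 1X cytokine.

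**Figure D2:**
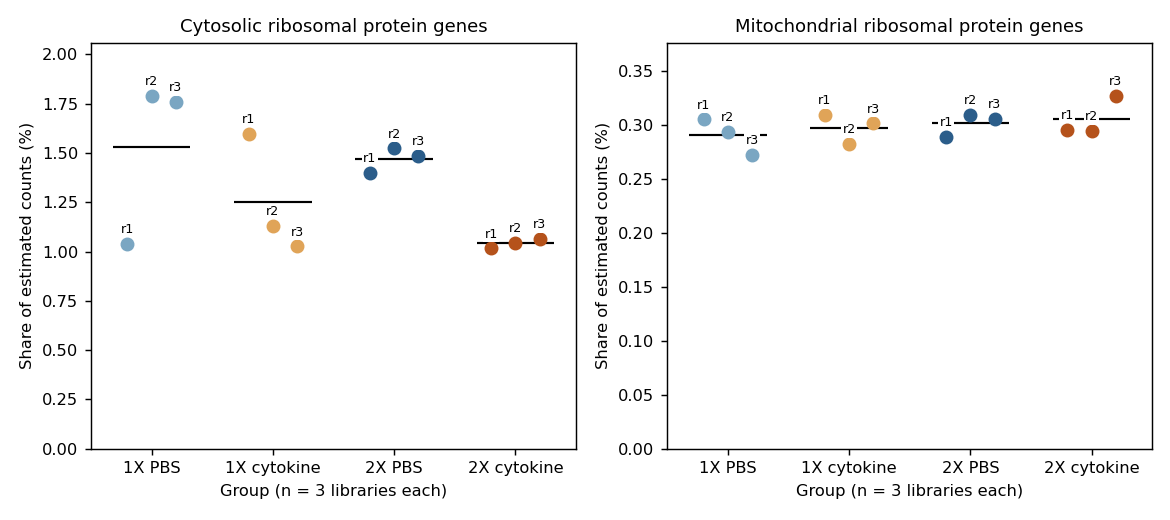
Share of each library's estimated counts (%) on the 83 cytosolic ribosomal protein genes (left) and the 78 mitochondrial ones (right); points are libraries, marked r1 to r3, and lines are group means, n = 3. On the left the 2X cytokine libraries sit between 1.02 and 1.06% and the 2X PBS libraries between 1.40 and 1.52%, while replicate 1 of each 1X group lies with the other treatment; on the right all libraries lie between 0.273 and 0.327%.

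The same pattern held gene by gene. For each tested member, the deviation of log2(CPM + 0.5) from its mean over the 12 libraries was taken, and the median over members was computed per library. The 2X cytokine libraries had -0.38, -0.33 and -0.33, and the 2X PBS libraries 0.06, 0.23 and 0.20. The 1X PBS libraries had -0.24, 0.46 and 0.56, and the 1X cytokine libraries 0.29, -0.18 and -0.30. In 1X PBS replicate 1 only 3 of 80 members were above their own mean, and in 1X cytokine replicate 1 as many as 75 were.

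**Figure D3:**
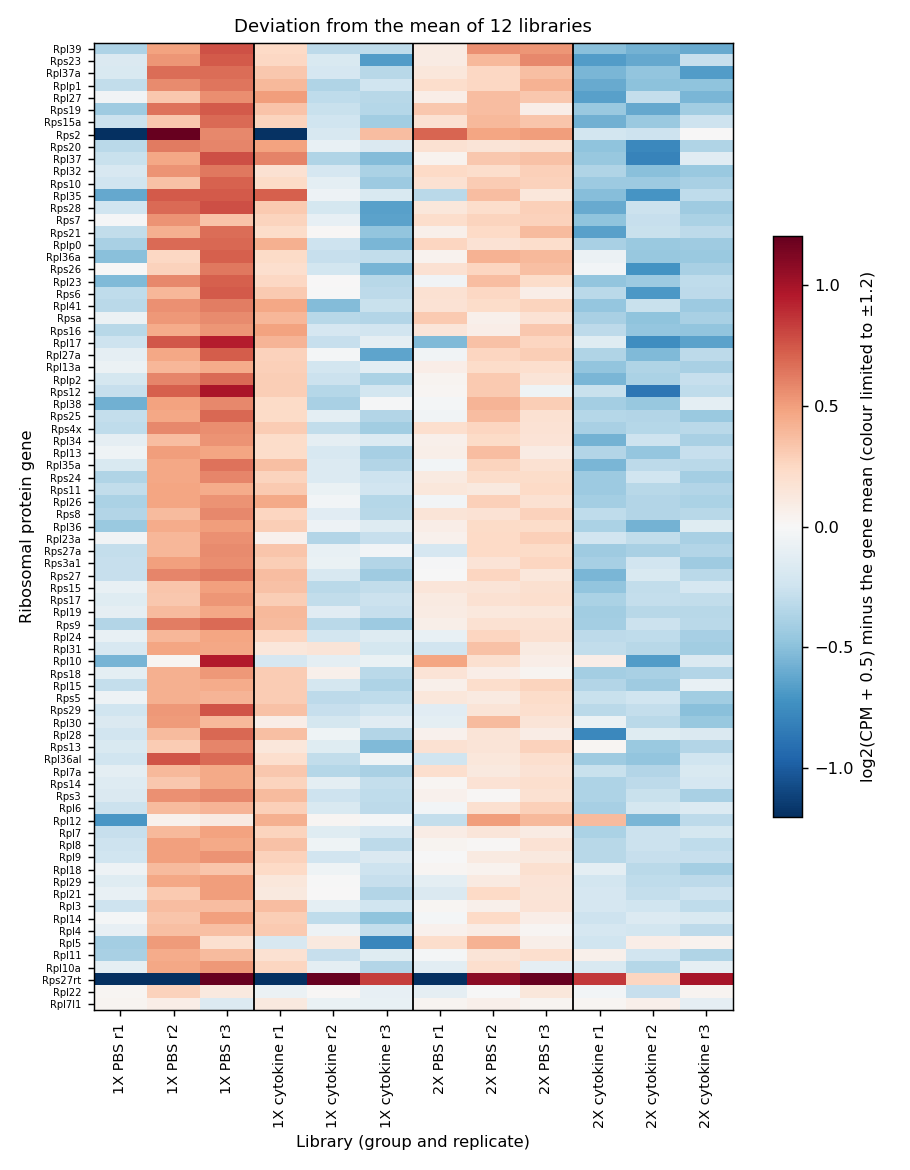
Deviation of log2(CPM + 0.5) from the gene's mean over 12 libraries (colour, limited to ±1.2) for the tested members reported here (rows, in order of their 2X log2 fold change) in each library (columns). The 2X cytokine columns are blue for nearly all members and the 2X PBS columns mostly red, least in replicate 1, and 1X PBS replicate 1 and 1X cytokine replicate 1 carry the opposite colour to the other columns of their label.

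Repeated cytokine injection was compared with repeated PBS for each gene. In the fit of all 12 libraries every one of the 80 members had a negative log2 fold change in 2X cytokine against 2X PBS, with a median of -0.52 beside 0.00 over all genes tested. The members ran from -0.97 for Rpl39 to -0.05 for Rpl7l1. None passed an adjusted p of 0.05 in edgeR's quasi-likelihood test, where 5 of 14490 genes (0.0345%) did. An unadjusted p under 0.05 was found for 46 members and for 1402 of the 14490 genes. DESeq2 and limma-trend on log2(TPM + 1) called 0 members, with 48 under an unadjusted 0.05 by each. In simulated counts of this comparison, with 14249 genes tested, the same fit recovered 45 of 100 genes changed 2-fold and 84 of 100 changed 4-fold.

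When the 6 libraries of the 2X mice were fitted alone, the estimated biological coefficient of variation between replicates was 0.114, against 0.238 in the fit of all 12. 60 of the 80 members were then called lower and none higher, with a median log2 fold change of -0.51. Lower calls made up 5.31% of the 13765 genes tested in that fit. Without both 1X libraries that stood apart, the 10-library fit called 59 lower, all among the same 60, beside 5.16% of all genes. All 3 libraries of 2X cytokine lay below all 3 of 2X PBS for 70 of 80 members, and for 14.1% of all genes tested. Because this contrast was in view when the family was proposed, these counts describe the members and nothing is read from their size.

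**Figure D4:**
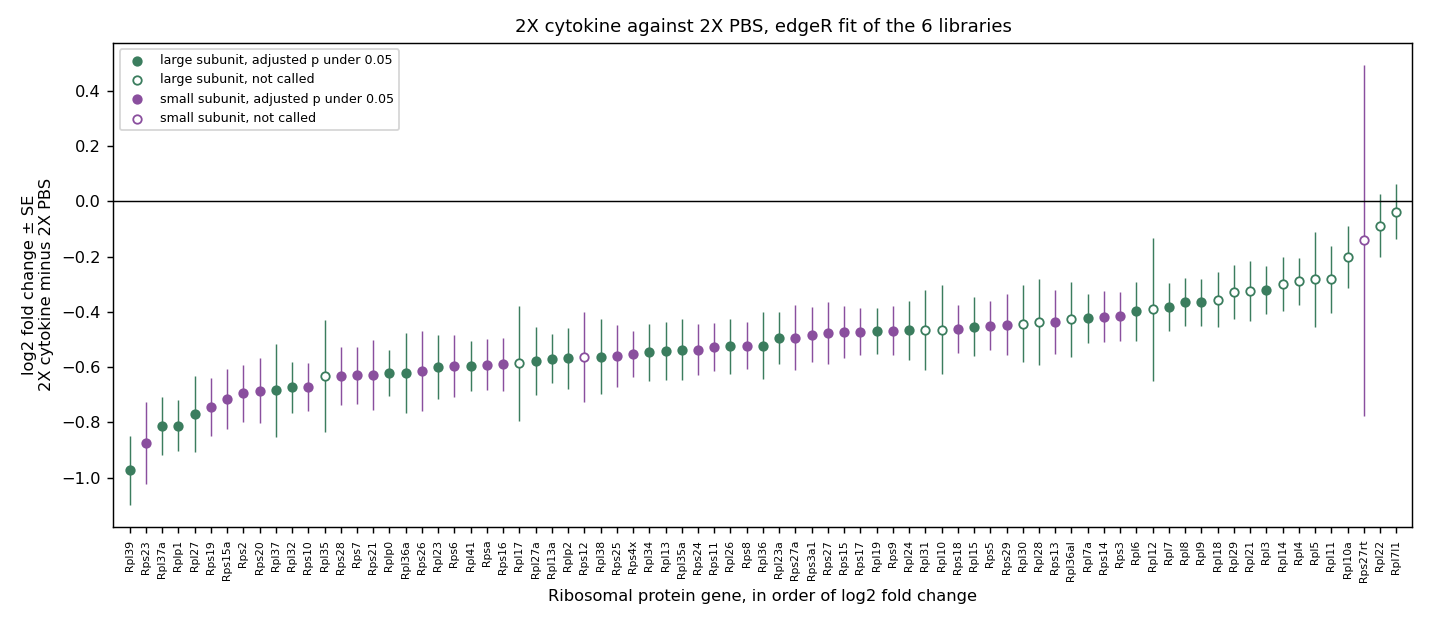
log2 fold change with its standard error (bars) of the tested members reported here, 2X cytokine minus 2X PBS, in the edgeR fit of the 6 libraries, in order of size; filled points have an adjusted p under 0.05 and colour gives the subunit. All points lie below 0, from -0.97 for Rpl39 to -0.04 for Rpl7l1, and 18 of the 20 open points are large-subunit members.

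Rpl39 encodes a small protein that lines the exit tunnel of the large subunit, and its gene lies on the X chromosome from 37082520 to 37085402. It had 68.2, 65.2 and 63.3 CPM in 2X cytokine and 103.7, 142.1 and 140.0 CPM in 2X PBS. The groups did not overlap, and the log2 fold change was -0.97 ± 0.13 (SE, edgeR, 6 libraries; ± 0.26 with 12). In the 1X groups it had 114.1, 77.5 and 78.0 CPM with cytokine and 74.9, 135.8 and 164.4 CPM with PBS. There PBS replicate 1 was below every cytokine library, and cytokine replicate 1 was the highest of its group.

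The next largest differences were in genes of both subunits. Rps23 (chromosome 13, 90922958 to 90924950), whose protein is part of the decoding centre, had 35.0, 36.6 and 46.4 CPM in 2X cytokine and 60.1, 73.8 and 84.2 CPM in 2X PBS, a log2 fold change of -0.88 ± 0.15. Rpl37a (chromosome 1, 72711290 to 72713813), a zinc-binding protein of the large subunit, had 62.9, 66.7 and 57.9 CPM against 101.8, 109.6 and 119.3 CPM, or -0.81 ± 0.10. Neither gene overlapped between the groups. Unlike Rpl39, the printed windows of both hold no pyrimidine run. Rps23 had a mean of 208 estimated counts against 330 in its copies outside the family, so its separate level is uncertain.

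The stalk proteins, through which the large subunit calls in elongation factors, differed by like amounts. Rplp1 (chromosome 9, 61913284 to 61914542) had 173.2, 187.6 and 188.1 CPM in 2X cytokine and 304.8, 314.6 and 352.7 CPM in 2X PBS, a log2 fold change of -0.81 ± 0.09. Rplp0, the stalk base, had 371.6, 357.0 and 362.6 CPM against 580.7, 547.4 and 563.9 CPM, or -0.62 ± 0.08, and for Rplp2 the value was -0.57 ± 0.11. None of the stalk genes overlapped between the groups.

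Among small-subunit genes with known special roles, Rps19, which is mutated in Diamond-Blackfan anaemia, had 109.5, 97.5 and 111.6 CPM in 2X cytokine and 187.4, 192.9 and 158.4 CPM in 2X PBS, a log2 fold change of -0.75 ± 0.10. Rps6, the substrate of the S6 kinases, had -0.60 ± 0.11. Rps3, which has also been described as a subunit of NF-κB complexes, had -0.42 ± 0.09. Further values were -0.59 ± 0.09 for Rpsa, the laminin receptor gene, -0.55 ± 0.08 for the X-linked Rps4x, and -0.49 ± 0.12 for Rps27a, which is made as a fusion with ubiquitin. All of these genes were without overlap in the 2X groups. The small proteins Rps27, Rps28 and Rps29 had -0.48 ± 0.11, -0.63 ± 0.11 and -0.45 ± 0.11, and Rps14 had -0.42 ± 0.09.

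Rps2, whose protein lies at the messenger RNA entry channel, varied more over the 12 libraries than any tested member but Rps27rt. It had 153.2, 149.9 and 178.4 CPM in 2X cytokine and 289.4, 247.9 and 251.5 CPM in 2X PBS, with no overlap and a log2 fold change of -0.69 ± 0.10. In 1X PBS it had 42.7, 430.1 and 265.2 CPM and in 1X cytokine 78.1, 155.9 and 229.8 CPM. Its standard error grew to 0.59 in the 12-library fit.

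On the large subunit, Rpl13a, which is also part of a complex that silences inflammatory messenger RNAs, had 131.7, 141.6 and 139.4 CPM in 2X cytokine and 193.0, 213.4 and 210.1 CPM in 2X PBS, a log2 fold change of -0.57 ± 0.09. Rpl38, known for its part in translating Hox messenger RNAs, had -0.56 ± 0.13, and Rpl41 -0.60 ± 0.09. The paralogs Rpl36a and Rpl36al had -0.62 ± 0.15 and -0.43 ± 0.14. Rpl3 had -0.32 ± 0.09. Rpl10, which joins the large subunit late, had -0.46 ± 0.16 and was not called, and most reads of its sequence were listed under a copy.

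A few members stood near 0. Rpl7l1 (chromosome 17, 46773907 to 46782672) had 68.1, 70.2 and 62.3 CPM in 2X cytokine and 68.7, 70.1 and 68.5 CPM in 2X PBS, a log2 fold change of -0.04 ± 0.10. Rpl22 (chromosome 4, 152325742 to 152334071), a protein that sits on the outside of the large subunit, had 80.7, 68.2 and 84.9 CPM against 76.6, 82.5 and 91.2 CPM, or -0.09 ± 0.11. Both pairs of groups overlapped, and each value was smaller than its standard error. For Rps27rt, with libraries from 0 to 16.8 CPM, the value was -0.14 ± 0.64, for Rpl10a -0.20 ± 0.11, and for Rpl5 and Rpl11 -0.28 ± 0.17 and -0.28 ± 0.12. None of these 6 members was called.

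In the 6-library fit the log2 fold changes had an SD of 0.16 over members, above their median standard error of 0.11. Whether members differ from each other was not tested. By subunit the medians were -0.54 over 32 small-subunit members, of which 30 were called lower, and -0.47 over 48 large-subunit members, of which 30 were. By length, 34 of the 40 members with transcripts up to 729 bases were called lower, with a median of -0.54, and 26 of the 40 longer ones, with a median of -0.46. Lower calls over all genes in that fit were 5.31%. Spearman's rho between log2 fold change and transcript length was 0.29 across the 80 members, which share libraries. The 29 tested members with a pyrimidine run in their window had a median of -0.54, and the 31 with a window but no run -0.52. None of these splits was tested.

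Fragments were also of unlike length between libraries. The mean fragment length implied by the deposited effective lengths was 244 to 246 bases in 2X cytokine, 221 to 249 in 2X PBS and 232 to 249 in the 1X groups. An edgeR fit with effective lengths as offset gave a median log2 fold change of -0.51 for the 2X comparison. The share of copies outside the family followed that of the family, with means of 0.181% in 2X cytokine against 0.261% in 2X PBS. When near-identical copies were added to their members, an alternative added after the data were seen, 72 of 80 members were called lower in the 6-library fit. Over all genes, 1072 of 13726 were called in either direction there.

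Genes that work with the ribosome were set beside the family in the 6-library fit of the 2X mice, from lists that were drawn up with earlier results of these data known. Rack1 and Fau, ribosomal proteins that carry other names, both fell. Rack1, a scaffold on the small subunit, had 131.6, 150.9 and 150.1 CPM in 2X cytokine and 213.5, 206.3 and 209.7 CPM in 2X PBS, a log2 fold change of -0.53 ± 0.09 (edgeR adjusted p = 0.0032). Fau, which fuses a ubiquitin-like protein to a small-subunit one, fell by 0.49 on the log2 scale (edgeR adjusted p = 0.0039). The paralogs Rps27l and Rpl22l1, both outside the rule, fell by 0.65 and 0.43 (edgeR adjusted p = 0.0089 and 0.0282). In the 12-library fit none of these 4 genes was called, with edgeR adjusted p from 0.364 to 0.537.

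Elongation and initiation factors, which drive the ribosome along and onto messenger RNAs, were called in part. Of 7 measured elongation factor genes 3 were called lower, beside 5.31% of all genes, and the list median was -0.25. Eef1a1, which brings aminoacyl-tRNA to the ribosome and had the highest level of the list at 2007 TPM, had 1742, 1804 and 1815 CPM in 2X cytokine and 2487, 2349 and 2387 CPM in 2X PBS, a log2 fold change of -0.42 ± 0.08 (edgeR adjusted p = 0.0079). Its exchange factor subunits Eef1b2 and Eef1g fell by 0.58 and 0.36 (edgeR adjusted p = 0.0021 and 0.0221). Of 27 initiation factor genes only Eif4a1, the helicase of the cap complex, passed, at -0.43 ± 0.11 (edgeR adjusted p = 0.0365), and the list median was -0.09.

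All 8 other genes with known TOP messenger RNAs had negative values, with a median of -0.32. Of these, 3 were called lower, beside 5.31% of all genes. These were Tpt1, a translationally controlled tumour protein, with -0.40 ± 0.10 (edgeR adjusted p = 0.0234), Btf3, part of the nascent chain complex, with -0.35 ± 0.10 (adjusted p = 0.0482), and Pabpc1, the poly(A)-binding protein, with -0.38, which is named because it was called. Of 14 host genes of small nucleolar RNAs, Gas5, itself a TOP transcript, fell by 0.38 (edgeR adjusted p = 0.023), and the list median was -0.34.

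In the lists for making and assembling ribosomes, medians were near 0. Of 36 ribosome biogenesis factors none was called and 18 were lower, with a median of 0.00. Of 15 genes of RNA polymerase I and its factors, which transcribe ribosomal RNA, Polr1b rose, with 31, 30.2 and 33.4 CPM in 2X cytokine and 14.1, 18.5 and 19.4 CPM in 2X PBS, a log2 fold change of 0.86 ± 0.16 (edgeR adjusted p = 0.0054), and the median was -0.01. Of 7 ribosomal protein chaperones and of 20 mTORC1 and TOP regulators none was called, with medians of 0.10 and 0.04. In the Myc network 1 of 8 measured genes was called, Mxd1 with -1.32, named for that call. Of the 78 mitochondrial ribosomal protein genes none was called and 34 were lower, with a median of 0.02. Whether these lists differ from the family was not tested. Lower calls over all genes were 5.31%, and higher calls were 334 of 13765. In the 12-library fit edgeR called no gene of any of these lists. An unadjusted p under 0.05 was found for 2 of 7 elongation factors, 1 of 27 initiation factors and 1 of 8 TOP genes. It was also found for 2 of 14 small nucleolar RNA hosts, 3 of 36 biogenesis factors and 1 of 15 RNA polymerase I genes. The same held for 1 of 20 mTORC1 and TOP regulators, 3 of 78 mitochondrial genes and 1402 of all 14490 genes. No chaperone or Myc network gene had one. In the 10-library fit the lower calls were 3 of 7 elongation factors, 0 of 27 initiation factors and 1 of 8 TOP genes. Also lower were 1 of 14 small nucleolar RNA hosts, 1 of 36 biogenesis factors and 1 of 10 Myc network genes. Of 78 mitochondrial genes 1 was called lower, and of 15 RNA polymerase I genes 1 was called higher. Lower calls over all genes were 766 of 14848 there.

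**Figure D5:**
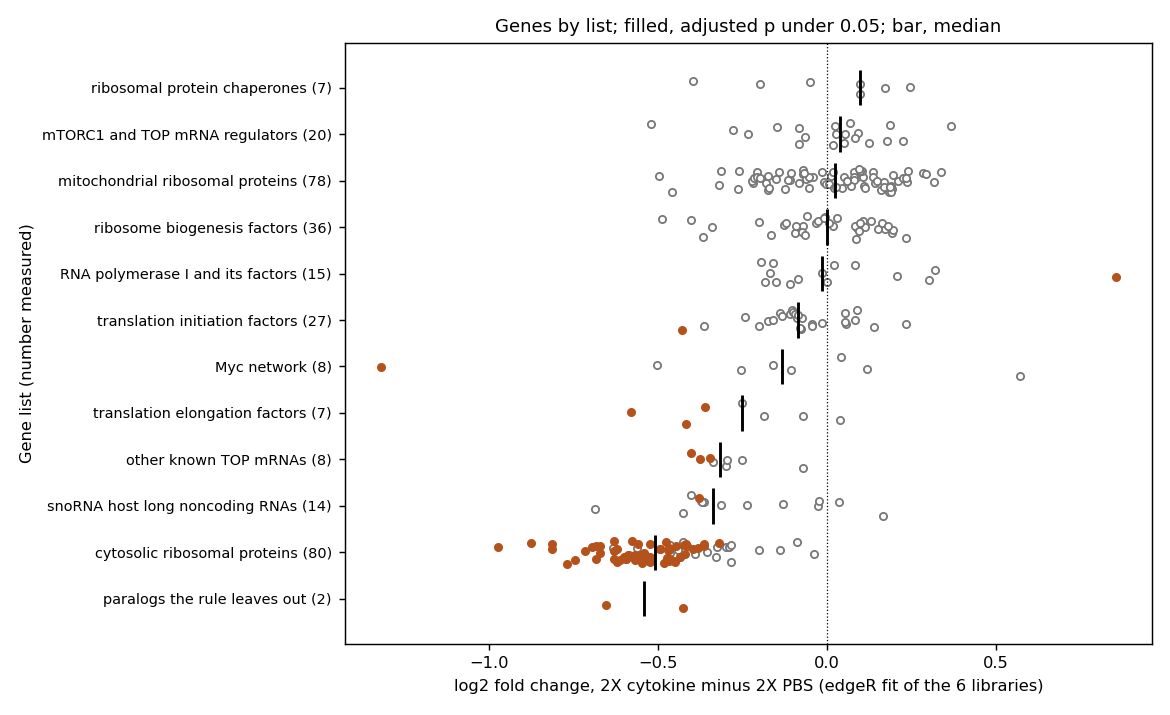
log2 fold change of each measured gene by list (number measured in brackets), 2X cytokine minus 2X PBS, in the edgeR fit of the 6 libraries; filled points have an adjusted p under 0.05 and bars are list medians. Medians lie at -0.51 for the cytosolic ribosomal proteins and -0.54 for the paralogs, at -0.25 for elongation factors, and within 0.1 of 0 for the mitochondrial ribosome, biogenesis, RNA polymerase I, chaperone and mTORC1 lists.

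Levels of other cells' markers differed between the 2X groups too, in both directions. The summed level of 10 monocyte and macrophage markers was 11.1 to 81.7 CPM in 2X cytokine and 373 to 395 CPM in 2X PBS, with all 10 lower in the mean. For 10 neutrophil markers it was 13.6 to 149 CPM against 288 to 393 CPM, with 7 lower, and for 12 microglia markers 430 to 835 CPM against 755 to 1071 CPM, with 10 lower. The 8 choroid plexus markers, all lower in the mean, had 3901 to 14449 CPM against 13690 to 15841 CPM. Of these 4 lists no marker was at 0 throughout the 2X cytokine group. Other lists were higher in 2X cytokine. The 10 oligodendrocyte markers had 5737 to 6900 CPM against 3036 to 4415 CPM, with 1 lower in the mean. The 7 erythrocyte markers had 2532 to 13454 CPM against 514 to 3571 CPM, with none lower, and the 8 ependymal markers 518 to 658 CPM against 400 to 531 CPM, with 1 lower. The 15 astrocyte markers summed to 35450 to 40060 CPM in 2X cytokine and 30642 to 33781 CPM in 2X PBS, with 4 lower in the mean. Gfap, the intermediate filament gene of reactive astrocytes, is named after its values were seen. It had 150, 119 and 113 CPM in 2X cytokine and 1141, 1043 and 1095 CPM in 2X PBS. In bulk samples fewer cells of a type and less RNA per cell cannot be told apart, and the part of these markers in the ribosomal protein values was not tested.

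A single cytokine injection against a single PBS injection gave no call. In 1X cytokine against 1X PBS, 78 of 80 members had a negative log2 fold change in the 12-library fit, with a median of -0.35 beside -0.01 over all genes. Leaving out 1X PBS replicate 3 gave -0.18 and leaving out 1X cytokine replicate 3 gave -0.20. On log2(TPM + 1) limma-trend gave -0.16, beside 0.12 over all genes. edgeR called 0 members and 0 of all genes (0%). An unadjusted p under 0.05 was found for 4 members and for 783 of 14490 genes. DESeq2 and limma-trend on log2(TPM + 1) called 0, with 4 and 2 members under an unadjusted 0.05. The lowest values were -0.68 ± 0.59 for Rps2, -0.63 ± 0.29 for Rps12 and -0.60 ± 0.27 for Rps28, and the highest 0.30 ± 0.30 for Rpl12. Only Rpl22 had every 1X cytokine library below every 1X PBS library, where 3.32% of all genes did.

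Without 1X PBS replicate 1 and 1X cytokine replicate 1, which leaves 2 libraries per 1X group, the same comparison called 73 of 80 members lower, beside 11.5% of all genes. The median log2 fold change was -0.71, with -1.11 ± 0.15 for Rps28 and -0.02 ± 0.13 for Rpl7l1. With only 1X PBS replicate 1 left out, 10 members were called lower, where 1141 of 15106 genes were called in either direction. The monocyte and macrophage markers again moved with the family, from 1371.0 and 1519.5 CPM in the 2 remaining PBS libraries to 31 and 32.4 CPM in the 2 remaining cytokine libraries. In the same libraries the neutrophil markers went from 1176 and 1389 CPM to 20.6 and 26 CPM. The erythrocyte markers went from 15761 and 64887 CPM to 955 and 2634 CPM, and the choroid plexus markers from 26647 and 27131 CPM to 12232 and 21499 CPM. The astrocyte markers went the other way, from 14123 and 13963 CPM to 35068 and 39981 CPM. The part of these markers in the values was not tested.

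The comparisons between injection schedules share libraries with those above. In 2X cytokine against 1X cytokine, 76 of 80 members had a negative log2 fold change, with a median of -0.32 beside -0.01 over all genes. edgeR called 0 members and 4 genes in all (0.0276%), with 7 members and 1015 of 14490 genes under an unadjusted p of 0.05. DESeq2 and limma-trend called 0 members, with 6 and 3 members under an unadjusted 0.05. Every 2X cytokine library was below every 1X cytokine library for 21 members, and for 6.77% of all genes. Without 1X cytokine replicate 1 the median was -0.10. Rps20, a small-subunit protein, had 53.5, 43.5 and 58.1 CPM in 2X cytokine and 104.7, 70.1 and 66.5 CPM in 1X cytokine, a log2 fold change of -0.64 ± 0.25, and the highest 1X value was that of replicate 1.

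In 2X PBS against 1X PBS, 73 of 80 members had a negative log2 fold change, with a median of -0.13 beside -0.03 over all genes. edgeR called 0 members and 0 genes (0%). No member had an unadjusted p under 0.05, where 914 of 14490 genes did. No member had every 2X PBS library below every 1X PBS library, where 6.05% of all genes did. DESeq2 and limma-trend called 0, with 0 and 1 members under an unadjusted 0.05. The values ran from -0.49 ± 0.32 for Rpl17 to 0.39 ± 0.30 for Rpl12. Without both 1X libraries that stood apart, 29 members were called lower, beside 8.47% of all genes, with a median of -0.30.

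The cytokine response of the 2X mice was set against that of the 1X mice by an interaction term. edgeR called 0 members and 0 genes (0%), and no member had an unadjusted p under 0.05, where 754 of 14490 genes did. DESeq2 and limma-trend called 0 members, with 0 and 2 under an unadjusted 0.05. The median over members was -0.17. Without both 1X libraries that stood apart it was 0.21, and Rps9 alone was called, at 0.54 ± 0.14. In that fit 1386 of 14848 genes were called. The median was 0.0072 without 1X PBS replicate 1 alone and 0.0091 without 1X cytokine replicate 1 alone. By voom with quality weights, with all 12 libraries kept, it was 0.11, with 23 of 80 members lower. The sign of this difference thus differed with those libraries left out and with the tool.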

How the data were processed

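RNA of sorted astrocytes was sequenced as SMART-Seq2 libraries and quantified per transcript with kallisto 0.46.1 against a GRCm38 transcriptome, per the labels' protocols; whether strand was used is not stated there. The authors' deposited values are estimated counts, TPM and effective lengths, per the file headers. Estimated counts were summed per gene and rounded to whole numbers, and the deposited TPM were summed. Mean fragment length was derived from the deposited effective lengths. Genes passed edgeR's default filter on low counts, TMM scaling was used, and quasi-likelihood tests were run in edgeR 4.0.16 (R 4.3.3) with Benjamini-Hochberg adjustment over all genes tested. The main fit held all 12 libraries in 4 groups with no covariate; alternatives used DESeq2 1.42.0, limma 3.58.1, other filters, scalings and sets of libraries. A gene is called at an adjusted p under 0.05. Errors of log2 fold changes are standard errors of the fit. Genes with near-identical copies are uncertain, since kallisto divides shared reads among them.

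The members and lists were chosen with earlier results of these data known. Named genes are a panel of members by role, the members with the highest and lowest TPM, the largest and smallest fold changes and smallest p per comparison, members called or removed by the filter, and for each list up to 3 genes by p and 1 by level. Library totals of 1878418 to 5521679 estimated counts limit the precision of low genes. The edgeR script was tested on simulated data: in the 2X comparison, with 13706 genes and its 6 libraries alone, 34 of 100 genes changed 2-fold and 82 of 100 changed 4-fold were recovered, with 11 false calls. The simulated counts took each gene's spread from all 12 libraries, whose coefficient of variation was 0.238, against 0.114 with the 6 alone. The rates therefore do not give the power of the real 6-library fit. Start windows and promoters come from RefSeq tables for GRCm38.p6. The values of 2 genes are not reported here, though counts and fits over all genes include them. The ATAC-seq samples were left out, since for 10 of the 19 the title and the treatment label disagree.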

Additional observations from a re-analysis of the deposited data

How the results depend on the processing

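Counts of called members varied with the libraries fitted and with the tool. In 2X cytokine against 2X PBS, 0 members were called by edgeR with all 12 libraries, 60 with the 6 libraries of the comparison, 72 with near-identical copies added to those 6, 5 without a filter on low counts, 41 by limma's voom with quality weights and 59 without both replicates 1 of the 1X groups. Leaving out single libraries gave 0 to 3. Over all genes the calls in either direction were 5 of 14490, 1065 of 13765 and 1072 of 13726 in the order given. Without the filter they were 460 of 33574, by voom 454 of 14490, and without both replicates 1 of the 1X groups 1042 of 14848. With single libraries left out they were 0 to 125. In 1X cytokine against 1X PBS, 0 became 65 by voom and 73 without both libraries, and 0 to 10 with single libraries left out. All-gene calls there were 1778 of 14490 by voom, 3489 of 14848 without both, and 0 to 1141 with single libraries left out. In 2X PBS against 1X PBS, 0 became 11 by voom and 29 without both, and 0 to 1 with single libraries left out. All-gene calls there were 2699 of 14490 by voom, 2759 of 14848 without both, and 0 to 1116 with single libraries left out. For the difference between the responses, 0 became 1 without both, where 1386 of 14848 genes were called. Over the pathway lists, 0 calls in the 2X comparison became 15 with its libraries alone, 17 with copies added to these, 1 without the filter, 8 by voom and 14 without both. In the 1X comparison 0 became 1 without the filter, 19 by voom and 27 without both, and 0 to 8 with single libraries left out. In 2X PBS against 1X PBS 0 became 16 by voom and 14 without both, and 0 to 4 with single libraries left out. For the difference 0 became 1 by voom and 4 without both. The cause was not tested.

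The median log2 fold change of the members in the 2X comparison stayed negative under all 28 alternatives, and lay between -0.56 and -0.46 with single libraries left out. In 1X cytokine against 1X PBS it lay between -0.51 and -0.18 with single libraries left out, and was -0.61 by voom. In 2X cytokine against 1X cytokine it lay between -0.44 and -0.10. In 2X PBS against 1X PBS it turned to 0.0843 and 0.084 in limma-trend with TPM pseudocounts of 0.1 and 1, and lay between -0.30 and 0.0041 with single libraries left out, the highest without 1X PBS replicate 3. The medians over all genes in those 2 limma-trend fits were 0.175 and 0.153, above those of the members. The 2X share difference of -0.43 percentage points was -1.25 as a share of TPM, -0.375 with protein-coding transcripts only and -0.508 with copies added. In 2X cytokine against 1X cytokine it was -0.599 as a share of TPM. In 2X PBS against 1X PBS it was 0.178 as a share of TPM, and lay between -0.31 and 0.0706 with single libraries left out. In 1X cytokine against 1X PBS it was -0.696 without both replicates 1, and lay between -0.52 and -0.147 with single libraries left out. With single libraries left out, Rpl22 was as low as -0.16, Rpl7l1 as -0.066 and Rps27rt as -0.60. Rpl22 turned to 0.0028 without 2X cytokine replicate 2. Rpl7l1 turned to 0.0222 and 0.0218 in limma-trend with pseudocounts of 0.1 and 1, and to 0.0123 without 2X cytokine replicate 3. Rps27rt turned to 2.41 and 1.33 in those fits and 0.38 by voom, and to 0.07, 0.42 and 0.11 without 2X PBS replicates 2 and 3 and 2X cytokine replicate 2.

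Of 18 pairs of libraries with the same replicate number, 2 had a correlation of deviations over 0.1, with values from -0.62 to 0.16. The lowest was between the 2 libraries that stood apart, so this check cannot settle whether the samples were paired. With the replicate block, 0 members were called in each comparison, the median was -0.32 in 1X, -0.52 in 2X, -0.33 between cytokine groups and -0.13 between PBS groups, and Rps27rt turned to 0.56.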
